A study of Mus musculus with 143 samples.

Results

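NKG2D and DNAM-1 are activating receptors through which cytotoxic lymphocytes read ligands on tumour cells. The 9 genes described here are Klrk1 (the NKG2D receptor), Hcst (its adaptor DAP10), Cd226 (DNAM-1), the DNAM-1 ligand genes Pvr and Nectin2, and the NKG2D ligand genes Raet1d, Raet1e, Ulbp1 and H60b. They were taken by symbol, through their Ensembl identifiers, from a table of 54232 gene identifiers, and all 9 had a row. Values are FPKM, fragments per kilobase of transcript scaled by mapped fragments, so levels of different genes are compared per length. The table covers tumours of 11 mouse models, 13 of each. Each model is a tumour line injected under the skin of the right lower flank: MC38, CM3 and MBT2 (labelled High responders to PD-1 antibody), CT26, EMT6, MB49 and RENCA (Partial), and 4T1, B16F10, LL2 and TC1 (Resistant). In every model 3 baseline tumours were untreated, with no day of excision in the labels. A further 5 tumours came from mice given a mouse IgG1 isotype control, and 5 from mice given muDX400, an antibody against PD-1. Both antibodies were given on days 11 and 15 after implantation, and these tumours were taken on day 19, 8 days after the first dose. The labels give no host strain, sex or age, and do not say whether mice were housed or processed in batches. Each model is a single transplanted line, so a difference between models is a difference between lines with their hosts.

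As background, NKG2D is found on natural killer cells, CD8 T cells and gamma-delta T cells, and in the mouse it signals through Hcst or, in a short isoform, through Tyrobp. Its ligands are distant relatives of MHC class I molecules, and stress, DNA damage and proliferation can raise their transcripts. DNAM-1 binds Pvr and Nectin2, and the inhibitory receptors Tigit and Cd96 compete with it for Pvr. Whole tumours were sequenced, so a transcript cannot be assigned to tumour or host cells, and more cells of a type and more RNA per cell cannot be told apart.

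The Raet1 pair needs care, because Raet1d and Raet1e are near-copies. In GENCODE M21 (build GRCm38) Raet1d lies on chromosome 10 from 22360552 to 22374139 and Raet1e from 22158569 to 22374139, both on the plus strand, and transcript Raet1e-202 runs into Raet1d. H60b, from 22158586 to 22288849 on the same strand, lies within the span of Raet1e. Of all 50-base words in the annotated Raet1d transcripts, 55.8% also occur in Raet1e. The coding sequences of Raet1d-201 and Raet1e-201 were identical at 713 of 744 aligned bases (95.8%). The 60-base coding stretch below shows where reads of 50 bases can tell the copies apart, with the 10 differing bases in capitals (Raet1d coding bases 511 to 570, Raet1e coding bases 517 to 576).
Raet1d: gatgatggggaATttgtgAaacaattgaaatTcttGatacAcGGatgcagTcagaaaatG
Raet1e: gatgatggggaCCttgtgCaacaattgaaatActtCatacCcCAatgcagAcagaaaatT
The sequence upstream of transcripts Raet1d-201 and Raet1e-201 is also nearly the same, which is shown because the 2 genes had unlike levels across the models. Aligned over 298 bases of the RefSeq promoter windows of build GRCm38.p6, 295 bases were identical (99.0%). The 248 bases printed here are chr10:22361644-22361891 for Raet1d and chr10:22173249-22173496 for Raet1e, both read on the plus strand, with the 3 differing bases in capitals.
Raet1d: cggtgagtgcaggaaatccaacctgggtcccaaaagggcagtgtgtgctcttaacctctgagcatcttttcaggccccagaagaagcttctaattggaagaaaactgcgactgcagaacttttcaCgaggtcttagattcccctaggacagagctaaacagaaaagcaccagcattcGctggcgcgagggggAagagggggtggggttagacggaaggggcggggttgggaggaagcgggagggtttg
Raet1e: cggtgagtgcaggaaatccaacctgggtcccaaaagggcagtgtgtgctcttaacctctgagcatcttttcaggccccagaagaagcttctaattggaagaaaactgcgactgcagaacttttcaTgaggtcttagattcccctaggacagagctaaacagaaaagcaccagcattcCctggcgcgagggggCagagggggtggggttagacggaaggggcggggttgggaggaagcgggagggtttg
Both windows hold a GC box (letters GGGCGG, searched on both strands) at bases 218 to 223 and a CCAAT box (letters CCAAT, on the opposite strand) at bases 93 to 97, and neither holds the letters TATAAA. Of 32851 RefSeq promoter windows of 300 bases, 35.7% hold the GC box, 37.4% the CCAAT letters and 13.6% the TATAAA letters. The 3 differences lie outside both motifs. RefSeq holds another promoter window for Raet1e, chr10:22158319-22158618, around the start of transcript Raet1e-204. It was not aligned with the Raet1d window, and it holds 3 GC boxes, no CCAAT letters and 65.3% G and C, against 56.0% in the Raet1e window printed above. The sum of Raet1d and Raet1e is therefore given beside the separate values wherever the ranking of ligands could turn on it. The other members share little sequence: 7.6% of the 50-base words of H60b occur in Raet1e, 1.8% of those of Ulbp1 in pseudogenes, and none of those of Klrk1, Hcst, Pvr or Nectin2 in another gene. The related genes Raet1a, Raet1b, Raet1c and H60a had no row under these symbols, so their levels are not known here. The ligand sums, shares and leading ligands below leave them out, which limits comparisons between lines. BALB/c mice, the source of the lines 4T1, CT26, EMT6 and RENCA, are known to carry other Raet1 genes than the reference strain, and how reads of such genes were counted was not tested.

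Estimated from the table, 9 libraries (baseline tumours of TC1, RENCA and B16F10) held 35.89 to 49.55 M fragments (M, 1e6), and the other 134 held 11.35 to 25.41 M. The sample numbers fall into 4 blocks, and isotype and muDX400 tumours of one model come from 1 block, whereas baseline and antibody-treated tumours share one only in B16F10 and RENCA. The melanocyte gene Pmel averaged 3570 FPKM in isotype tumours of B16F10 and 1810 in those of CM3, and 0.032 to 0.568 in the other models. The library RENCA isotype replicate 2 stood apart: its 3 B cell markers summed to 437 FPKM against 0.564 to 1.37 in the other 4 of its group. Results that rest on it are given with and without it.

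NKG2D receptor transcripts differed widely between the models. Klrk1 averaged 0.222 ± 0.272 FPKM in isotype tumours of B16F10 (SD, n = 5 here and below for each isotype or muDX400 group), 0.331 ± 0.232 in LL2 and 1.07 ± 0.404 in TC1, and these 3 Resistant models were the lowest. The Resistant model 4T1 had 4.6 ± 1.67 FPKM, among the Partial and High models, which ran from 3.97 ± 0.572 in MB49 to 8.55 ± 1.73 in MBT2 and 8.66 ± 7.37 in EMT6. In EMT6 the 5 isotype tumours ran from 1.86 to 19.1 FPKM, so that mean rests on 2 high tumours, and by the mean of log2(FPKM + 1) MBT2 was the highest model. In the ordered list of models, LL2 and TC1 did not overlap, nor did TC1 and MB49, and every other neighbouring pair overlapped. Hcst followed a similar order, from 0.589 ± 0.349 FPKM in B16F10 through 0.839 ± 0.244 in TC1 and 1.19 ± 0.268 in LL2 to 7.07 ± 4.85 in CM3 and 9.08 ± 6.81 in RENCA, and all of its neighbouring pairs overlapped. The RENCA isotype tumours had 12.3, 19.4, 6.46, 3.66 and 3.5 FPKM of Hcst, and the highest of them is the library rich in B cell markers. Without that library RENCA averaged 6.49 ± 4.13 FPKM of Hcst (SD, n = 4), and CM3 became the highest model. The highest model of the other 8 members was the same without it.

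DNAM-1 was scarce in every model. Cd226 averaged 0.0309 ± 0.0284 FPKM in LL2 isotype tumours and reached 0.671 ± 0.240 in MBT2 and 0.704 ± 0.682 in CM3, and it was listed at 0 in all 5 isotype tumours of TC1. Over all models only 17 libraries reached 1 FPKM, and 13 of the 17 were muDX400 tumours. It therefore failed the filter on low values (1 FPKM in at least 5 libraries of a fit) in 10 of 11 models and passed in fits over all antibody-treated tumours only through the muDX400 arm, where it is high. In MBT2 too, all 5 libraries that met the filter were muDX400 tumours. A p-value of Cd226 from a filtered fit on the antibody is therefore not read as a call, and its values from the fits without the filter are given instead.

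**Figure D1:**
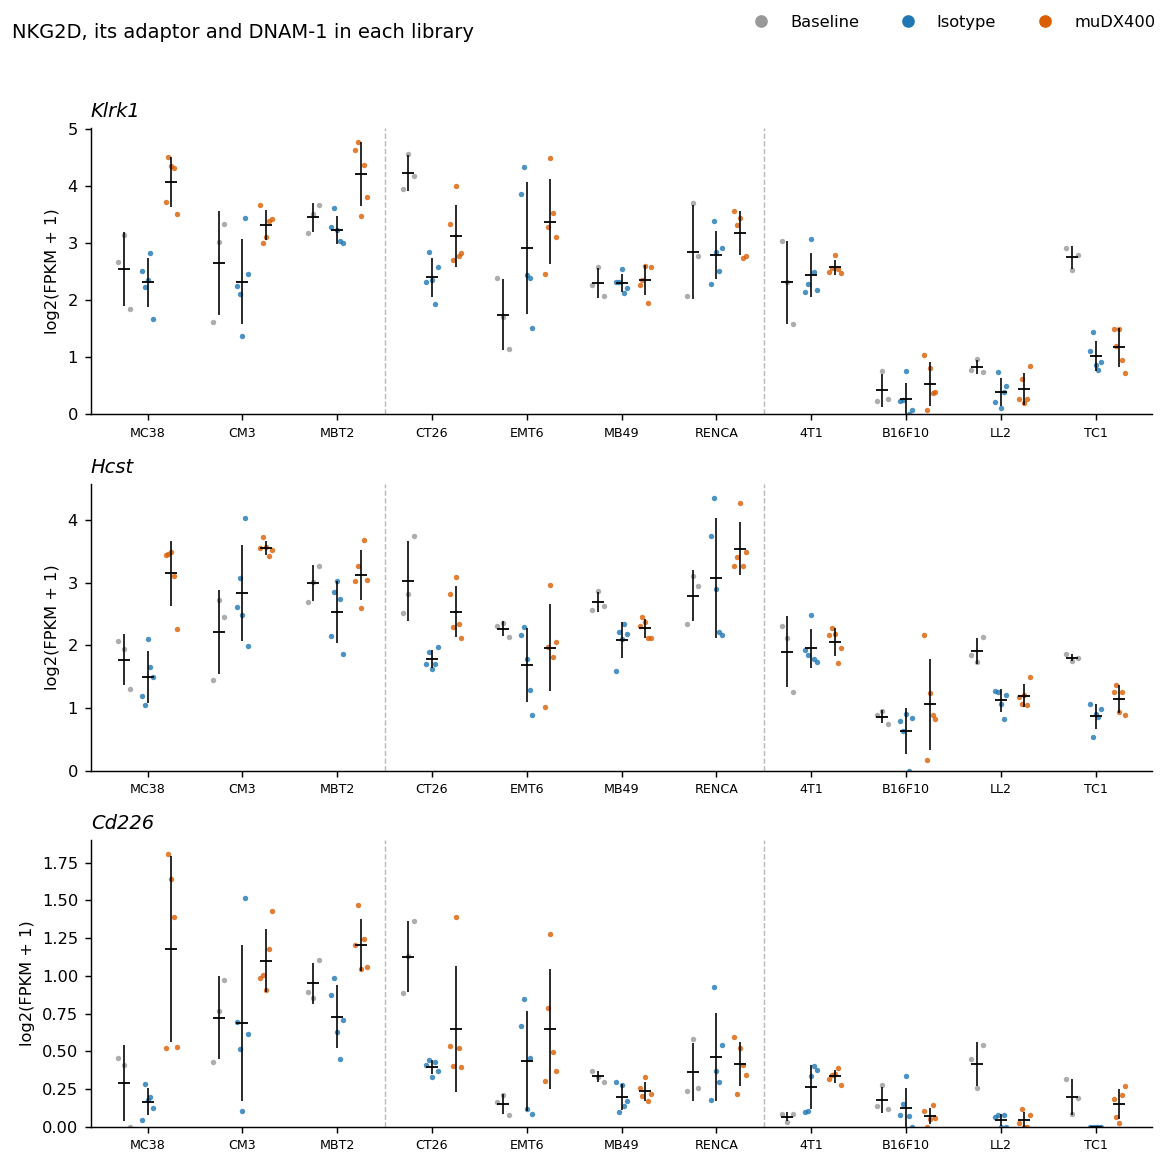
Log2(FPKM + 1) of Klrk1, Hcst and Cd226 in every library by model and arm, with the mean and SD of each group in black and dashed lines between the High, Partial and Resistant models. Among isotype tumours Klrk1 is lowest on average in B16F10, LL2 and TC1, and in MC38 the muDX400 tumours lie above all isotype tumours for all 3 genes.

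The clearest change in the receptors was in MC38. Klrk1 was 4.70, 3.70, 4.11, 6.16 and 2.17 FPKM in its isotype tumours and 12.2, 21.7, 19.5, 18.9 and 10.4 in its muDX400 tumours. The arms did not overlap, and the difference was 1.76 on the log2(FPKM + 1) scale (SE 0.240, adjusted p = 0.00103, limma with Benjamini-Hochberg adjustment over all genes, as below). Hcst was 1.28, 1.07, 3.30, 2.16 and 1.81 FPKM under isotype and 9.89, 9.96, 10.2, 7.56 and 3.78 under muDX400. These arms did not overlap either, with a difference of 1.65 (SE 0.260, adjusted p = 0.00169). Cd226 was 0.0341 to 0.218 FPKM under isotype and 0.438 to 2.5 under muDX400 in MC38, without overlap, but it fell below the filter there and has no test. Of the 7 members tested in MC38, 2 rose and 1, Pvr, fell, where 27.3% of all genes tested passed.

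The other High models moved in the same direction without passing the threshold. In MBT2 Klrk1 was 7.0 to 11.4 FPKM under isotype and 10.1 to 26.6 under muDX400 (difference 0.98, SE 0.235, adjusted p = 0.0518), and these arms overlapped in 1 tumour of each. Without muDX400 replicate 3 it passed (1.17, adjusted p = 0.00462), as it did without muDX400 replicate 5 (1.08, adjusted p = 0.0478). Cd226 in MBT2 was 0.366 to 0.979 FPKM under isotype and 1.07 to 1.77 under muDX400, without overlap, and in the fit without the filter the adjusted p was 0.126. In CM3 the Klrk1 values were 3.77, 3.33, 1.59, 9.87 and 4.51 FPKM under isotype and 11.8, 7.0, 7.62, 9.5 and 9.73 under muDX400 (difference 0.99, SE 0.319, adjusted p = 0.179). Isotype replicate 4, at 9.87 FPKM, lay inside the muDX400 range, and its CD8 T cell markers also stood highest in its group. That list, here and below, holds Cd8a and Cd8b1 with the CD3 chains Cd3e, Cd3d and Cd3g, which other T cells carry too. The median of all genes in CM3 stood at 0.13 in this comparison, and median-ratio scaling, which moved that median to about 0, gave 0.86 for Klrk1 and 0.57 for Hcst. Without isotype replicate 4 the CM3 differences were 1.27 for Klrk1 (adjusted p = 0.00449) and 1.01 for Hcst (adjusted p = 0.00556). In CM3 0 of 5 members and 0% of genes passed, although 3 members and 3441 of 12945 genes had an unadjusted p under 0.05. In MBT2 0 of 8 members and 0% of genes passed, with 4 members and 3597 of 12541 genes at an unadjusted p under 0.05.

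Among the Partial models CT26 had the largest receptor differences. Hcst in CT26 was 2.09 to 2.90 FPKM under isotype and 3.33 to 7.53 under muDX400, and the arms did not overlap. The difference was 0.76 (SE 0.174, adjusted p = 0.0881), which passed when libraries were rescaled by median ratios or by quantiles. In CT26 0 of 5 members passed where 0.339% of genes did. Klrk1 differed by 0.73 in CT26, 0.47 in EMT6, 0.38 in RENCA and 0.05 in MB49, with adjusted p of 0.164 or more and overlapping arms. In the Resistant models Klrk1 differed by 0.14 in 4T1 and 0.15 in TC1, with adjusted p of 0.910 or more. It fell below the filter in LL2 and B16F10, and Hcst below it in TC1 and B16F10. The mean of log2(FPKM + 1) was nevertheless higher under muDX400 in 11 of 11 models for Klrk1 and for Hcst, and in 9 of 11 for Cd226, without regard to the filter.

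Other genes of the 2 receptor systems rose in MC38 as well. All 10 adaptor and signalling genes rose, led by Lck (1.84), the kinase that starts receptor signalling in T cells, and Zap70 (1.62), which passes the signal on, where the list's median was 1.29 and that of all genes -0.06. Both chains of the integrin LFA-1, a partner of DNAM-1 at the contact with the target cell, rose (Itgb2 by 1.62 and Itgal by 1.5). Both inhibitory receptors tested rose, Tigit from 1.32 ± 0.539 to 9.33 ± 3.64 FPKM (difference 2.09, SE 0.269, adjusted p = 0.000956) and Pvrig, a receptor of Nectin2, by 0.92. All 4 cytotoxic effector genes rose, led by Prf1 (2.77), which forms pores in target cells, and Gzmb (2.77), a granzyme. Of the cytokine list 3 of 4 genes rose, led by Il2rb (2.31), a chain of the IL-2 and IL-15 receptors that sustain NKG2D.

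Of the cells that carry NKG2D, CD8 T cells had markers that passed in MC38, and natural killer cells had none. In MC38 all 5 genes of the CD8 T cell list rose, Cd8a from 3.19 ± 1.31 to 27.9 ± 11.1 FPKM (difference 2.72, SE 0.325, adjusted p = 0.000930) and Cd8b1 by 2.74. The summed list, with its CD3 chains of all T cells, was 6.76 to 16.6 FPKM under isotype and 33.3 to 138 under muDX400. Of the 5 natural killer markers 1 reached the filter and 0 passed, and that list summed to 1.91 to 2.46 FPKM under isotype and 2.47 to 5.81 under muDX400. None of the 5 was listed at 0 in a whole group, and Ncr1, which marks natural killer cells, was 0.257 ± 0.109 FPKM under isotype and 0.761 ± 0.396 under muDX400. The 3 gamma-delta T cell markers were low, their summed means having a median over the 11 models of 0.765 FPKM under isotype and 0.945 under muDX400. All 4 macrophage markers rose too (summed 360 to 549 against 675 to 1380 FPKM). So did both mast cell markers tested (Cpa3 by 2.06, Mcpt4 by 1.73), all 3 endothelial markers (Pecam1 by 1.45, Cdh5 by 1.26, Kdr by 0.94), both platelet markers tested, the neutrophil marker Csf3r (1.74), the fibroblast marker Dcn and the epithelial marker Cdh1, while the neutrophil marker S100a9 fell. The part of these cells in the change of Klrk1, Hcst and Cd226 was not tested.

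Averaged over the 11 models, 3 members other than Cd226 rose (14.5% of all genes rose) and 1 fell (8.57% of all genes fell). The p-values of this mean and of the class means rest on the spread between tumours of a model, and not between models. Klrk1 rose by 0.54 (SE 0.088, adjusted p = 2.22e-06) and Hcst by 0.50 (SE 0.086, adjusted p = 6.02e-06), and both still passed without MC38, without each replicate number and without RENCA isotype replicate 2. In the fit without the filter Cd226 rose by 0.23 (adjusted p = 0.000317), where 6.59% of genes rose. Beside them the inhibitory receptors Tigit and Cd96 rose by 0.56 and 0.22, the T cell gene Cd8a rose by 0.70, and Ncr1 differed by 0.06 (SE 0.072, adjusted p = 0.564). The 5 CD8 T cell markers and the 4 macrophage markers all rose in this mean, as did 2 of the 3 natural killer markers tested, Eomes by 0.14 and Klrb1c by 0.13. All 4 cytokine genes passed upward in it, with Il2rb at 0.51 and Il15ra, which presents IL-15, at 0.44, as did 9 of the 10 adaptor and signalling genes, with Lck at 0.44.

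In the mean over the 3 High models Klrk1 rose by 1.24 (SE 0.168, adjusted p = 6.91e-09) and Hcst by 0.99 (SE 0.165, adjusted p = 1.01e-06). No ligand gene passed in that class, so 2 members other than Cd226 rose where 24.7% of genes did and 0 fell where 17.4% did. In the fit without the filter Cd226 rose there by 0.63 (adjusted p = 7.79e-08), where 12.6% of genes rose. In the Partial class Klrk1 differed by 0.41 (adjusted p = 0.0752) and Hcst by 0.42 (adjusted p = 0.0564). In that class 1 member rose, Nectin2 (4.53% of genes rose), and 1 fell, Ulbp1 (2.13% of genes fell). Rescaling by median ratios, or leaving out RENCA isotype replicate 2, raised the Partial count from 1 to 3 members. In the Resistant class 0 members and 0% of genes passed, with 0 members and 441 genes at an unadjusted p under 0.05, and the differences there were 0.15 for Klrk1, 0.22 for Hcst and 0.04 for Cd226.

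**Figure D2:**
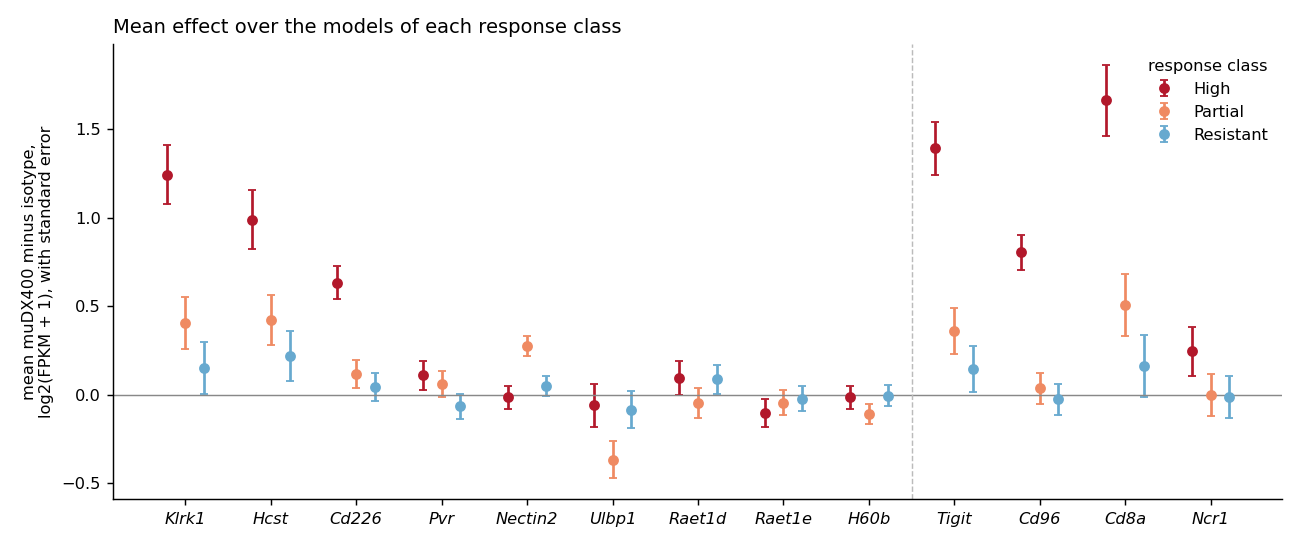
Mean difference, muDX400 minus isotype, on the log2(FPKM + 1) scale with its standard error for the 9 members and, right of the dashed line, Tigit, Cd96, Cd8a and Ncr1, over the 3 High, 4 Partial and 4 Resistant models. The 3 receptor genes are highest in the High class (0.63 to 1.24), Nectin2 and Ulbp1 stand off 0 in the Partial class (0.28 and -0.37).

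The difference itself was tested between models and along the classes. In a test of whether the muDX400 effect differed among the 11 models, 4 of the 8 members other than Cd226 passed where 32.4% of genes did: Nectin2 (adjusted p = 0.000299), Klrk1 (0.00702), Pvr (0.00748) and Hcst (0.0424). Raet1d, Raet1e, Ulbp1 and H60b did not pass (adjusted p 0.33 to 0.87). Without MC38 only Nectin2 among the 9 still passed (adjusted p = 0.00399), as it did when replicate 2 of every group was left out (adjusted p = 0.0264). Along the classes, scored 0, 1 and 2 for Resistant, Partial and High, the effect of muDX400 on Klrk1 rose by 0.53 per class (SE 0.106, adjusted p = 0.0368), and 1 of 7 members tested passed where 2.8% of genes did. That call was lost without 4T1, B16F10, CM3, CT26, EMT6, LL2, MC38 or TC1 (slope 0.39 without MC38, adjusted p = 0.0844) and kept without MB49, MBT2 or RENCA. The slope of Hcst was 0.38 (adjusted p = 0.0751). An exact permutation test of the class labels over the 11 models (11550 arrangements, 2-sided, unadjusted, with 27 slopes computed) gave p = 0.000519 for Klrk1, 0.00519 for Hcst and 0.00182 for Cd226, and 0.392 or more for the 6 ligand genes.

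Levels before or without PD-1 antibody were compared with class in the same way. At baseline 0 of 7 members tested and 0% of 14009 genes passed, with 0 members and 431 genes at an unadjusted p under 0.05. In isotype tumours 0 of 7 members and 0% of 13589 genes passed, with 2 members and 640 genes at an unadjusted p under 0.05. The 2 members were Klrk1 (slope 0.84, SE 0.276) and Hcst (slope 0.60, SE 0.238), whose class means rose from 1.03 to 2.63 and from 1.14 to 2.29 between the Resistant and the High models on the log2(FPKM + 1) scale. The exact permutation test of isotype levels, also 2-sided and unadjusted among the 27 slopes, gave p = 0.0179 for Klrk1, 0.0394 for Hcst and 0.0145 for Cd226, and at baseline 0.099, 0.115 and 0.0909.

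By the median of the 11 isotype means the DNAM-1 ligand genes were the most abundant members, Pvr at 28.4 and Nectin2 at 12.9 FPKM, followed by Ulbp1 at 10.4. Both were present in every tumour. On average Nectin2 lay below Raet1e, Raet1d and Ulbp1 in LL2 isotype tumours, below Raet1e in MB49, and below Ulbp1 in CT26 and EMT6. Pvr, the poliovirus receptor, had 16 ± 3.65 FPKM in CM3 isotype tumours and 18.2 ± 5.68 in MBT2 at the low end, and 53.2 ± 5.44 in TC1 and 59.6 ± 5.67 in CT26 at the high end. CT26 and TC1 overlapped, and both lay above RENCA, the next model at 36.1 ± 6.60 FPKM. Nectin2 had 5.47 ± 0.795 FPKM in LL2, without overlap with the next model, CM3 (9.84 ± 1.92). It was highest in 4T1 (20.2 ± 2.12) and B16F10 (21.1 ± 3.43), which overlapped each other. Every library had at least 1 FPKM of both genes, with a lowest value of 11.0 for Pvr and 3.95 for Nectin2.

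Pvr exceeded Nectin2 per length in most libraries. The exceptions were confined to 4T1, where Nectin2 was the higher in 8 of 13 libraries, and B16F10, where it was in 9 of 13. The ratio of Pvr to Nectin2 in isotype tumours was 1.03 ± 0.299 in B16F10 and 1.08 ± 0.248 in 4T1, and it reached 3.87 ± 0.511 in LL2, 3.99 ± 0.464 in TC1 and 4.66 ± 0.770 in CT26. LL2 and CT26 came to similar ratios from unlike levels, with 21.3 ± 4.72 FPKM of Pvr in LL2 and 59.6 ± 5.67 in CT26.

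Each of the DNAM-1 ligand genes passed under muDX400 in a single model. In MC38 Pvr was 30.6, 30.9, 25.4, 27.6 and 27.5 FPKM under isotype and 20.7, 18.9, 20.0, 20.1 and 24.1 under muDX400. Every muDX400 tumour was below every isotype tumour, and Pvr fell by 0.43 (SE 0.089, adjusted p = 0.00609), a call that held in all 16 alternatives. The 5 muDX400 tumours also had less Top2a, a proliferation marker, which fell by 0.41 in MC38, and the part of that in the Pvr difference was not tested. Nectin2 in MC38 was 12.9 to 15.9 FPKM under isotype and 10.8 to 14.2 under muDX400, with overlapping arms and a difference of -0.23 that did not pass. In CM3 Pvr was 11.0 to 20.8 FPKM under isotype and 19.9 to 26.8 under muDX400, a difference of 0.45, opposite in sign to MC38, that also did not pass. In MB49 the arms of Pvr did not overlap either (33.3 ± 2.80 against 38.3 ± 2.30 FPKM), but the difference of 0.20 had an adjusted p of 0.410.

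In RENCA Nectin2 was 18, 9.77, 13.3, 10.8 and 11.0 FPKM under isotype and 19.7, 19.4, 27.6, 24.2 and 20.9 under muDX400. The arms did not overlap, and Nectin2 rose by 0.80 (SE 0.177, adjusted p = 0.0370), making 1 of 7 members called where 2.57% of genes were. Without isotype replicate 2, the library rich in B cell markers, the difference was 0.73 (adjusted p = 0.0666), and the call was lost in 8 of the 10 fits that left out 1 library, with differences between 0.73 and 0.93. Il15ra, the only other gene of the 9 related lists that passed in RENCA, rose by 1.00. Of the cell markers 2 of 3 neutrophil markers rose in RENCA, S100a8 by 1.98 and Csf3r by 1.69, and 1 of 3 endothelial markers, Cdh5 by 1.14, and their part in the Nectin2 rise was not tested. Over the 4 Partial models together Nectin2 rose by 0.28 (SE 0.057, adjusted p = 0.00065), and over all 11 by 0.11 (SE 0.035, adjusted p = 0.00987), which was lost without replicate 2 (adjusted p = 0.0946) or replicate 3 (adjusted p = 0.0528) of every group.

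**Figure D3:**
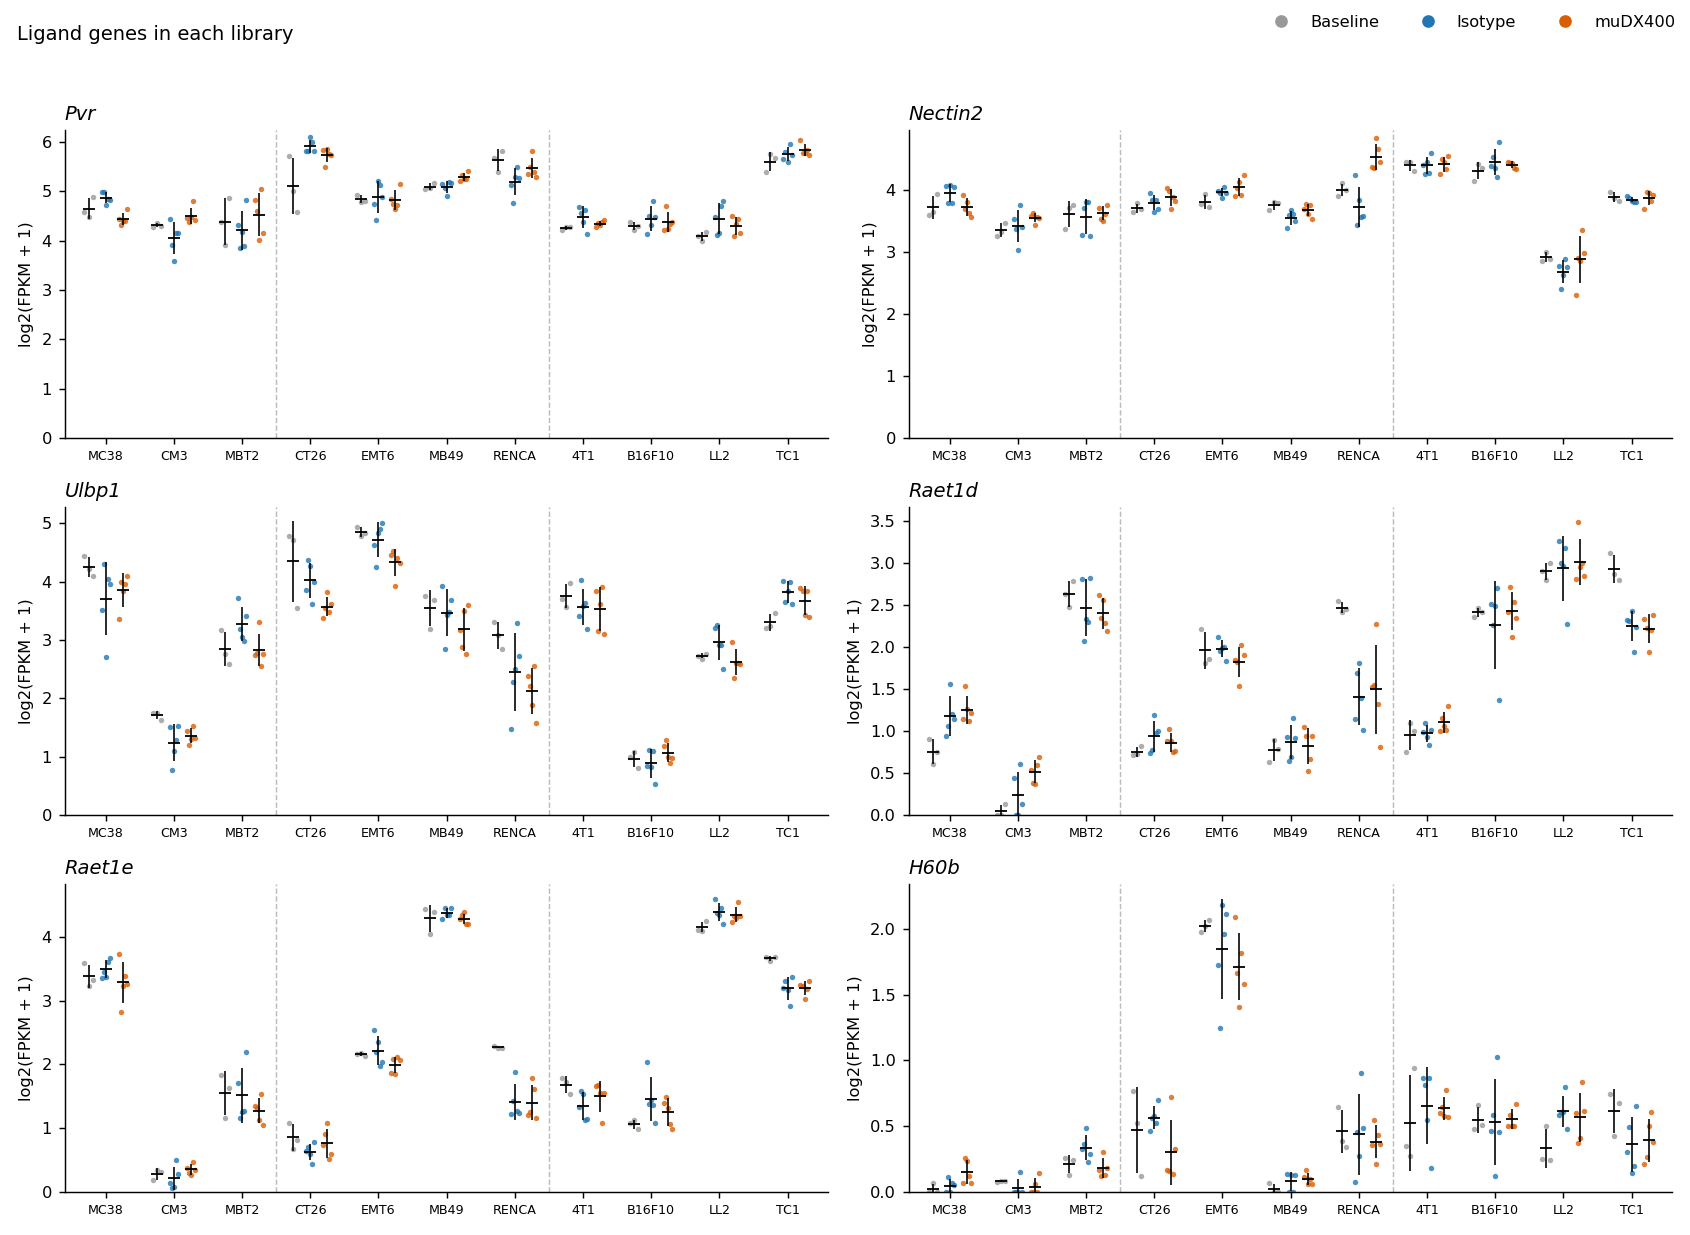
Log2(FPKM + 1) of the 6 ligand genes in every library by model and arm, with the mean and SD of each group in black and dashed lines between the High, Partial and Resistant models. Raet1e separates MC38, MB49, LL2 and TC1 from the other models, and H60b stands above 1 FPKM on average only in EMT6.

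The NKG2D ligand genes had wider ratios between models than the DNAM-1 ligand genes. Summed over Raet1d, Raet1e, Ulbp1 and H60b, isotype tumours held 1.79 ± 0.768 FPKM in CM3, 7.20 ± 2.30 in B16F10 and 8.73 ± 3.03 in RENCA, and 31.1 ± 2.61 in MB49, 34.4 ± 5.24 in LL2 and 35.2 ± 5.66 in EMT6. CM3 was thus low in every one of the 4 genes, with Ulbp1 at 1.41 ± 0.499 and Raet1d, Raet1e and H60b below 0.2 FPKM on average. The ratio between the highest and the lowest model was 121 for Raet1e, 35.2 for Raet1d and 29.9 for Ulbp1, against 3.73 for Pvr and 3.86 for Nectin2. The ratios of Raet1e and Raet1d divide by CM3 means near 0, 0.166 ± 0.156 and 0.195 ± 0.234 FPKM, so their size is uncertain. That of Ulbp1 divides by 0.862 ± 0.302 FPKM in B16F10.

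Ulbp1 was the commonest leading ligand. It was the highest of the 4 genes in isotype tumours of 8 models, and by group means remained so in those 8 when Raet1d and Raet1e were summed. In RENCA, 1 of the 8, Ulbp1 exceeded Raet1d plus Raet1e in only 2 of 5 isotype libraries. It took 88.6% ± 2.1 of the sum in CT26, 82.7% ± 15.2 in CM3, 77.8% ± 2.3 in 4T1 and 73.1% ± 3.8 in EMT6, where it also had its highest level, 25.8 ± 5.14 FPKM. Raet1e led in MB49 (64.1% ± 7.5 of the sum) and LL2 (58.8% ± 4.3), and Raet1d led in B16F10 (55% ± 7.2). The share of Ulbp1 in B16F10 was 12.2% ± 2.9, with 0.862 ± 0.302 FPKM, the lowest Ulbp1 level of the 11 models. With Raet1d and Raet1e kept apart, the leading ligand was the same in all 3 arms in 10 models. In TC1 it was Raet1e at baseline and Ulbp1 at day 19. With the pair summed, the leader by group means also changed in MBT2, from the pair at baseline to Ulbp1 at day 19. Counted by library, Ulbp1 exceeded the pair in MBT2 in 2 of 3 baseline tumours already, and in 4 of 5 isotype and 3 of 5 muDX400 tumours. By group means it changed in RENCA too, where Ulbp1 led under isotype and the pair in the other arms. Counted by library, Ulbp1 exceeded the pair in RENCA in 1 of 3 baseline, 2 of 5 isotype and 4 of 5 muDX400 tumours. The library counts there do not follow the means, and no change of leader was tested. With Raet1d and Raet1e summed, Ulbp1 led by group means in 5 models at baseline and 7 under muDX400. H60b stood above 1 FPKM on average in EMT6 alone (2.69 ± 0.874), and 13 of its 14 libraries at or above 1 FPKM were EMT6 tumours.

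**Figure D4:**
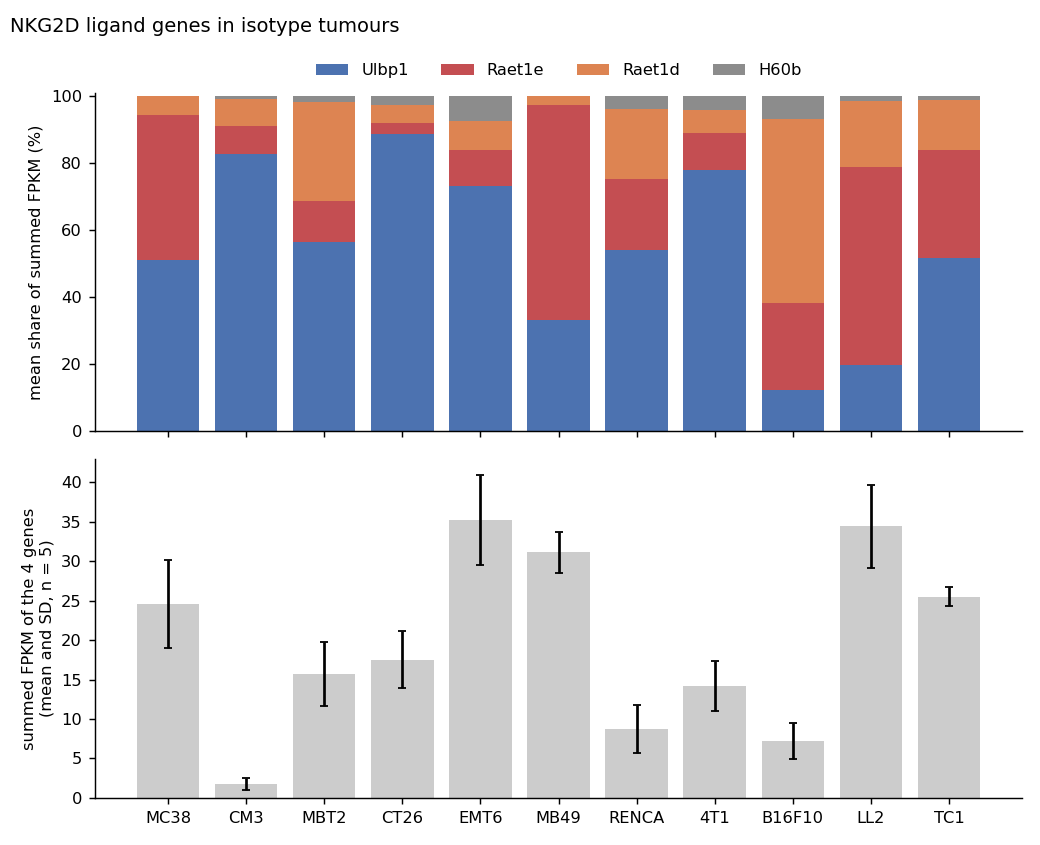
Upper panel, the mean share of each NKG2D ligand gene in the summed FPKM of the 4 genes in the 5 isotype tumours of each model; lower panel, that sum with its SD. Ulbp1 takes most of the sum in CT26, CM3, 4T1 and EMT6, Raet1e in MB49 and LL2, and Raet1d in B16F10.

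The near-copies Raet1d and Raet1e had different ratios from model to model. Raet1e exceeded Raet1d in 13 of 13 libraries of 4T1, LL2, MB49, MC38 and TC1, and in 0 of 13 of B16F10 and MBT2. In isotype tumours Raet1e was 23.7 times Raet1d in MB49 (19.8 ± 1.10 against 0.835 ± 0.264 FPKM) and 7.99 times in MC38 (10.3 ± 1.13 against 1.29 ± 0.393). In MBT2 Raet1d was 2.36 times Raet1e (4.66 ± 1.32 against 1.97 ± 0.982 FPKM), and in B16F10 2.22 times (4.04 ± 1.51 against 1.82 ± 0.750). LL2 was high in both, with 20.1 ± 2.15 FPKM of Raet1e and 6.87 ± 1.84 of Raet1d. These ratios rest on the authors' division of reads over the shared sequence printed above.

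All 8 members that passed the filter in isotype tumours differed between models, where 99.2% of all genes did, so the count says little of these genes. Within the block of EMT6, LL2, MC38 and TC1, where 93.5% of genes passed, all 8 members tested did. H60b met the filter in that block only through the 5 isotype tumours of EMT6, the model where it is high. In the fit over all isotype tumours it met the filter through these and B16F10 isotype replicate 4. Its p-values between models are therefore not read as calls. In the block of 4T1, CM3, CT26, MB49 and MBT2 (93.6% of genes) all 7 tested did, and between B16F10 and RENCA (53.8% of genes) 6 of 7 did. The exception was Raet1e, at 1.82 ± 0.750 FPKM in B16F10 and 1.70 ± 0.575 in RENCA (adjusted p = 0.853). Of the 90 neighbouring pairs in the 9 orders of models, 13 did not overlap (10.6% of neighbouring pairs over all genes past the filter did not), each with the smallest p that an exact 2-sided permutation test of 5 against 5 can give (0.00794), and after adjustment over the 90 none passed (lowest adjusted p = 0.0549). Differences between models took 97.6% of the variance of Raet1e in log2(FPKM + 1) over the 110 antibody-treated tumours, 91.0% for Raet1d, 90.8% for Ulbp1, 79.2% for Klrk1 and 52.1% for Cd226, beside a median of 80.5% over all genes tested.

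The order of models held between isotype and muDX400 tumours for the NKG2D ligand genes, with Spearman coefficients over the 11 model means of 0.99 for Raet1d, 0.96 for Ulbp1, 0.93 for H60b and 0.92 for Raet1e. The coefficients were 0.79 for Klrk1 and 0.75 each for Pvr, Nectin2 and Cd226. Against baseline they ran from 0.41 for Cd226 to 0.92 for Ulbp1. These are descriptions over the same 11 lines. The highest model was the same at baseline as under isotype for 2 of the 9 genes only, Ulbp1 and H60b, both in EMT6.

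No NKG2D ligand gene passed under muDX400 in any model, over 28 tests in all. Raet1d was tested in 8 models with differences from -0.16 in EMT6 to 0.16 in B16F10, and Raet1e in 9 models with differences from -0.24 in MBT2 to 0.16 in 4T1. H60b was tested in EMT6 only (-0.13, SE 0.188). The mean over 11 models was 0.04 for Raet1d (SE 0.050, adjusted p = 0.597), -0.05 for Raet1e (SE 0.042, adjusted p = 0.387) and -0.04 for H60b (SE 0.035, adjusted p = 0.380). In B16F10, EMT6, LL2, MB49 and 4T1 0% of all genes passed, and so did 0 of the 4, 8, 6, 6 and 7 members tested, with 351, 538, 1973, 1247 and 601 genes at an unadjusted p under 0.05. The members at that level were 1 in EMT6, 1 in LL2, 1 in MB49 and 0 in B16F10 and 4T1. In TC1 0.0802% of genes passed and 0 of 6 members did, with 0 members and 817 genes at an unadjusted p under 0.05.

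Ulbp1, which encodes the ligand MULT1, had the lowest differences of the NKG2D ligand genes. In CT26 it was 13.4, 19.6, 18.3, 11.2 and 15.0 FPKM under isotype and 9.37, 10.8, 13.2, 10.2 and 11.3 under muDX400, a difference of -0.45 with overlapping arms that did not pass. In MBT2 it was 6.91 to 12.1 FPKM under isotype and 4.90 to 8.88 under muDX400 (difference -0.44), which passed only without muDX400 replicate 3 (-0.56, adjusted p = 0.0200). Its mean was lower under muDX400 in 8 of 11 models. Over all 11 it fell by 0.18 (SE 0.063, adjusted p = 0.0284) and over the Partial models by 0.37 (SE 0.105, adjusted p = 0.0190). The mean over 11 models did not pass without the filter on low values, with a pseudocount of 0.1, or without replicate 2, 4 or 5 of every group (adjusted p 0.0681, 0.0914 and 0.107). The Partial mean did not pass without replicate 3, 4 or 5 (adjusted p 0.0889, 0.104 and 0.186). Both proliferation markers fell in the 11-model mean, Mki67 by 0.33 and Top2a by 0.18, and over the 110 antibody-treated tumours, after subtracting each group's mean, Ulbp1 and Mki67 had a Pearson coefficient of 0.70. The part of proliferation in the Ulbp1 difference was not tested.

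**Figure D5:**
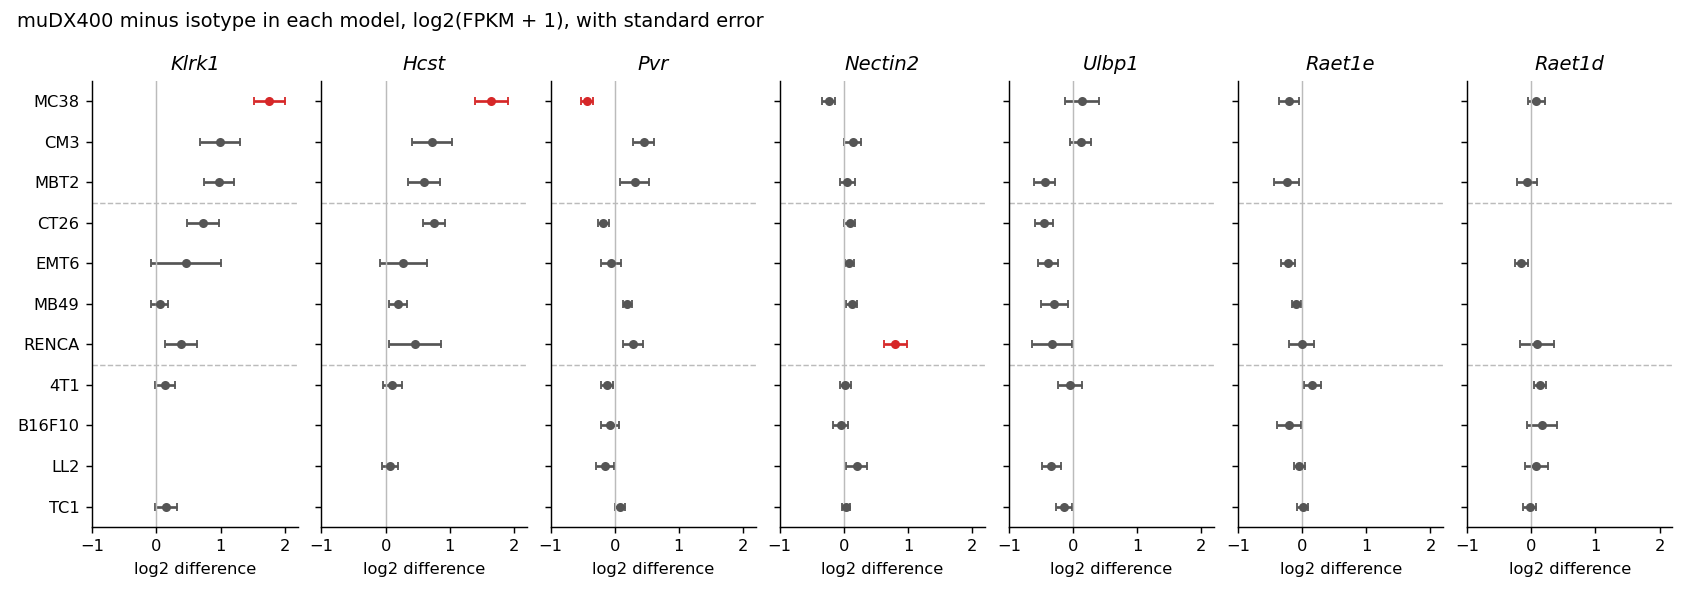
Difference, muDX400 minus isotype, on the log2(FPKM + 1) scale with its standard error for 7 members in each model where they passed the filter on low values, with those past an adjusted p of 0.05 in red and dashed lines between the High, Partial and Resistant models. The 4 red points are Klrk1, Hcst and Pvr in MC38 and Nectin2 in RENCA.

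Genes that act on the ligands form 3 further lists. Of the 6 DNA damage kinases and E2F factors and their corepressor, 0 rose and 1, the histone deacetylase Hdac3, fell in the 11-model mean (by 0.12), and the list's median was -0.10 beside -0.01 over all genes. Of the 3 proteases that shed ligands from the cell surface, 1 rose in that mean, the membrane metalloproteinase Mmp14 (0.13), and in MC38 1 rose, Adam17 (0.41). Of the 5 other nectins and nectin-like genes 2 rose in the 11-model mean, Cadm1 (0.26), a ligand of the receptor encoded by Crtam, and Nectin4 (0.23), and both rose in MC38 as well (by 1.40 and 0.94). Over all genes 14.5% rose and 8.57% fell in the 11-model mean, and 27.3% passed in either direction in MC38. With lists this short, the counts are not read as results about the lists.

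Between baseline and day-19 isotype tumours, Klrk1 and Hcst were lower in the mean over the 11 models, though not in every model. In EMT6 Klrk1 was 4.23, 2.29 and 1.22 FPKM at baseline and averaged 8.66 ± 7.37 in isotype tumours. In CM3 Hcst was 1.7, 5.6 and 4.5 FPKM at baseline and averaged 7.07 ± 4.85 in isotype tumours. In both models 0 members passed upward. Averaged over the 11 models 0 of 8 members tested rose (4.12% of genes rose) and 2 fell (25.1% of genes fell): Klrk1 by 0.34 (SE 0.112, adjusted p = 0.0166) and Hcst by 0.38 (SE 0.100, adjusted p = 0.00227). The count that fell is near the share of all genes that fell, so it says little of these genes. Cd226 did not reach the filter in this fit. Under median-ratio scaling the split over all genes moved from 672 higher and 4094 lower to 1628 higher and 2376 lower, and both members still fell. Klrk1 did not pass without replicate 2 (adjusted p = 0.118) or replicate 5 (adjusted p = 0.0598) of every group. Ncr1, Klrb1c and Eomes, the 3 natural killer markers tested, fell as well (by 0.32, 0.20 and 0.14), whereas none of the 5 CD8 T cell markers passed, Cd8a being at 0.15 (adjusted p = 0.373). The part of natural killer cells in the Klrk1 and Hcst differences was not tested. Baseline and isotype tumours of 9 models come from different blocks of sample numbers, so growth and block cannot be told apart there. In B16F10 and RENCA alone, whose arms share a block, Hcst differed by 0.03 (adjusted p = 0.959) and no member passed.

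Within single models Klrk1 and Hcst fell in CT26 and TC1. In CT26 Klrk1 was 14.5, 22.6 and 17.2 FPKM at baseline and 2.81 to 6.16 in isotype tumours, without overlap, and fell by 1.83 (SE 0.370, adjusted p = 0.00019), while Hcst fell by 1.24. Pvr in CT26 was 51.6, 31.3 and 23.1 FPKM at baseline and 55.6 to 68.1 in isotype tumours, and rose by 0.81 (SE 0.184, adjusted p = 0.000902), so 3 members passed where 15.3% of genes did. In TC1 Klrk1 was 6.56, 4.81 and 5.97 FPKM at baseline and 0.723 to 1.73 in isotype tumours, and fell by 1.72 (SE 0.370, adjusted p = 0.00052). Hcst, Raet1d and Raet1e also fell in TC1 (by 0.93, 0.68 and 0.47), making 4 members where 13.9% of genes passed. All 3 natural killer markers tested fell in both models, Ncr1 by 1.61 in CT26 and by 1.25 in TC1. Of the 5 genes of the CD8 T cell list 1 fell in CT26, the CD3 chain Cd3d by 1.08. None passed in TC1, where the CD3 chain Cd3e was 0.963 ± 0.237 FPKM at baseline and 0.178 ± 0.0912 in isotype tumours. In TC1 all 3 neutrophil, all 3 mast cell and all 3 endothelial markers fell, S100a9 by 2.45, Mcpt4 by 1.45 and Kdr by 1.55. None of the 4 macrophage markers passed there, Adgre1 being at 29.5 ± 2.27 FPKM at baseline and 16 ± 3.04 in isotype tumours. In CT26 the mast cell markers Cpa3 and Fcer1a fell and the endothelial markers Cdh5 and Pecam1 rose. The part of these cells in the differences was not tested.

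In RENCA both Raet1 genes were lower in the later tumours. Raet1d was 4.83, 4.34 and 4.48 FPKM at baseline and 1.01 to 2.51 in isotype tumours, and fell by 1.06 (SE 0.181, adjusted p = 4.12e-06). Raet1e was 3.86, 3.77 and 3.80 FPKM at baseline and 1.34 to 2.70 in isotype tumours, and fell by 0.86 (SE 0.158, adjusted p = 1.88e-05). Neither pair of groups overlapped, and 2 members passed where 23.7% of genes did. All 4 epithelial markers fell in the same comparison, Krt18 by 1.25, Krt8 by 1.23, Epcam by 1.10 and Cdh1 by 0.78, and Krt8 went from 506 ± 6.94 to 226 ± 83.3 FPKM. Top2a fell by 0.68. The part of these cells in the Raet1 differences was not tested.

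The genes most like each member in isotype tumours were sought by the Pearson coefficient over the 11 model means, among 13589 genes with a mean of at least 1 FPKM in at least 3 models. With so few points, and with lines and hosts shared, these are descriptions. Klrk1 was most like Tlr6 (0.975), Gbp5 (0.973) and BC147527 (0.969), Hcst like Gmfg (0.973), and Cd226 like BC064078 (0.979). Among the ligand genes Ulbp1 was most like Prkg2 (0.952), Raet1e like Cdv3 (0.921), Raet1d like Rad23b (0.911), Pvr like Ska1 (0.89), Nectin2 like Rnf34 (0.885) and H60b like Dysf (0.867).

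Within groups the picture was read from the 110 antibody-treated tumours after each group's mean was subtracted, so tumours of one model and arm are compared only with each other. Klrk1 was most like Cd86, Gbp8 and Cd200r4 (0.831 each), and had coefficients of 0.74 with Cd8a, 0.71 with Cd226, 0.58 with Hcst and 0.51 with Ncr1. Hcst was most like Neurl3 (0.824), and also had 0.74 with Cd8a. Ulbp1 was most like Arhgap11a (0.873), Diaph3 (0.866) and Zgrf1 (0.861). Pvr was most like Maff (0.754), Dusp4 (0.743) and Rusc2 (0.706), and Nectin2 like Tgfb1 (0.714), Akt2 (0.697) and Fam234a (0.693). Raet1e was most like Raet1d, at 0.464 only, which bears the shared sequence in it. Klrk1 had coefficients of -0.25 to 0.18 with the 6 ligand genes, and Hcst had -0.43 with Ulbp1.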

How the data were processed

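Total RNA of whole tumours was sequenced with a stranded, ribosomal-RNA-depleted kit as paired reads of 50 bases, per the labels' protocols. The authors deposited 1 table of FPKM values per gene; the sources used here do not name its aligner, quantifier, annotation or strand setting. Depth was estimated from the smallest steps of the FPKM values and covers counting error only. From the deposited FPKM, log2(FPKM + 1) was fitted by limma (version 3.58.1, on R 4.3.3), whose prior spread followed the gene's intensity, keeping genes at or above 1 FPKM in at least 5 libraries, or with a model mean of at least 1 FPKM in at least 3 models for the class trends. P-values were adjusted by Benjamini-Hochberg over all genes, threshold 0.05, and differences on this scale understate those of low genes. Groups follow the labels, and p-values measure the spread between tumours of a model, except for the class trends and the permutations of class labels. Those rest on the 11 model values and measure the spread between models. Sequences were compared with biopython 1.88 on Python 3.11.15, from GENCODE M21 and RefSeq.

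The members, the 9 related gene lists and the 14 cell marker lists were chosen with earlier results of these data known. All members are named; other genes are named from the lists, or as the 3 with the highest Pearson coefficient to a member. The fitting script was tested on simulated data. Alternatives were another pseudocount, no filter, median-ratio and quantile scaling, a shared spread, a replicate block, and leaving out replicates, models or 1 library.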

Additional observations from a re-analysis of the deposited data

Results flagged for a closer look

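In 6 of 141 groups of 5 tumours 1 value lay far from the other 4, where chance gives about 1 in 20 groups. Klrk1 was 5.96 FPKM in 4T1 muDX400 replicate 3 (others 4.6 to 4.90), and Hcst was 4.61 in 4T1 isotype replicate 3 (others 2.32 to 2.78) and 18.4 in RENCA muDX400 replicate 3 (others 8.59 to 10.3). Pvr was 26.8 in CM3 muDX400 replicate 4 (others 19.9 to 21.4) and 65.3 in TC1 muDX400 replicate 1 (others 52.7 to 56.1). Raet1e was 1.12 in 4T1 muDX400 replicate 4 (others 1.91 to 2.2).

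The muDX400 effect differed between the models, by limma's F test adjusted over all genes, for Nectin2 (adjusted p = 0.000299), Klrk1 (0.00702), Pvr (0.00748) and Hcst (0.0424). The same test gave 0.00186 for Cd226, which is not read as a call, since the gene entered that fit only through muDX400 tumours. Klrk1 differed by 1.76 in MC38 and 0.05 in MB49, and Pvr by -0.43 in MC38 and 0.45 in CM3.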

How the results depend on the processing

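Of 900 recomputed values of 69 results, 803 kept their direction and their side of the threshold. A shared spread over models raised the members passing in CM3 from 0 to 4, and median-ratio and quantile scaling raised CT26 from 0 to 1. RENCA dropped from 1 to 0 without the filter, with median-ratio scaling and with a replicate block. In the 11-model mean the members lower dropped from 1 to 0 with a pseudocount of 0.1 and without the filter. The Partial members higher rose from 1 to 3 with median-ratio scaling and also 3 without RENCA isotype replicate 2, an alternative chosen after seeing the data, as was the fit within blocks. Differences of effect between models dropped from 5 to 3 members with the pseudocount of 0.1 and to 1 without MC38. Isotype against baseline dropped from 2 to 1 with the replicate block and to 0 in B16F10 and RENCA alone. The class trend of the effect dropped from 1 to 0 with the pseudocount of 0.1 and without 4T1, B16F10, CM3, CT26, EMT6, LL2, MC38 or TC1, and rose to 2 without MBT2. The highest model matched that of isotype tumours for 2 of 9 members at baseline. The counts for the 11-model mean, for the High mean and for effects between models include Cd226, which met the filter only through muDX400 tumours. The count of members that differed between models in isotype tumours includes H60b, which met the filter through EMT6 and B16F10 isotype replicate 4. The causes were not tested.

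Leaving out 1 replicate gave 0 to 2 members in CM3 and MBT2, 3 to 3 in MC38, 0 to 1 in RENCA, 3 to 4 higher and 0 to 1 lower in the 11-model mean, 3 to 4 higher in High, 1 to 3 higher and 0 to 1 lower in Partial, 1 to 5 for the effect between models, 7 to 8 between models and 1 to 2 against baseline. Of the 69 differences of a member within a model, 20 changed sign under an alternative. The largest of these differences was 0.163 in size, and no sign change came with an adjusted p under 0.05. Examples are LL2 Hcst (-0.00037 without isotype replicate 4, up to 0.113 without other replicates) and MB49 Klrk1 (-0.011 and -0.009 without muDX400 replicates 3 and 5, up to 0.149). Signs also turned for mean Raet1d (-0.002 without replicate 2, up to 0.071) and Hcst against baseline (0.029 in B16F10 and RENCA alone).

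Counts of all genes also moved: CT26 from 41 to between 0 (replicate block) and 150 (median-ratio scaling), RENCA from 325 to 127 without the filter, and the class trend from 382 to 0 with the pseudocount of 0.1. The replicate numbers did not pair tumours, with same-number correlations from -0.674 to 0.641 and at most 2 of 5 tumours closest to their own number. At about 3.7 fragments for Cd226 and 7.6 for H60b at the median model, depth limits both.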
